A study of Mus musculus with 15 samples.

Results

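Lysosome and autophagy genes were followed in mouse hearts exposed to angiotensin II (AngII), a peptide hormone that raises blood pressure, with or without oleic acid (OA), a monounsaturated fatty acid. The 35 members were a named list of mouse genes that covers the digestive enzymes, membrane proteins and proton pump of the lysosome, its transcriptional regulator Tfeb, and the machinery of autophagy. They were found by gene symbol alone among the 36653 gene identifiers of the deposited table. Ventricular RNA enriched for poly(A) came from 15 C57BL/6 mice, wild type and 10 weeks old, 5 per group. AngII plus OA mice carried a subcutaneous pump releasing AngII at 1000 ng/kg/min and received OA daily (160 mg/kg, 0.3 mL for each mouse). AngII mice carried the same pump without OA, and vehicle mice received saline. There was no group given OA without AngII, and the labels do not say whether AngII mice or vehicle mice received the carrier of the OA. The values are FPKM, which scales the fragments of a gene by its length and by the total of the library.

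The lysosome is an acidic compartment in which proteases, glycosidases and lipases break down material delivered by endocytosis and by autophagy. In autophagy a double membrane grows around cytoplasm and organelles, carries lipidated ATG8 proteins of the LC3 and GABARAP families, and fuses with the lysosome. In the heart this turnover clears damaged mitochondria and protein aggregates from long-lived cardiomyocytes, and macrophages and fibroblasts are further sources of lysosomal enzymes.

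Tfeb binds the sequence CACGTG, the core of the CLEAR element found upstream of many lysosomal genes; other factors of its class bind the same core. Promoter windows of 250 bases before to 50 bases after the annotated start were available from RefSeq (GRCm38.p6) for 30 of the 35 members, all but Becn1, Ctsb, Ctsh, Map1lc3a and Npc1. The core CACGTG reads the same on both strands and stood in the windows of 11 of the 30 members (36.7%), against 8.09% of all 27025 genes with a window. These 11 were Atg5, Atg7, Atp6v0d1, Atp6v1a, Ctsa, Ctsd, Ctsl, Glb1, Lamp1, Lgmn and Mcoln1. The longer GTCACGTG, searched on both strands and containing the core, was found in 8 of the 30 (26.7%), against 2.55% of all genes. The full palindromic CLEAR element, which extends GTCACGTG at its other end too, was in none of the 30 and in 0.37% of all genes. Lamp1, a major glycoprotein of the lysosomal membrane, held 4 copies of the core in the last 100 bases before its start (chr8:13159061-13159160, plus strand). That stretch is shown first, followed by 30 bases around 1 copy in each of 7 further members, with the core in capitals, all 5′ to 3′ on the strand of the gene.
Lamp1: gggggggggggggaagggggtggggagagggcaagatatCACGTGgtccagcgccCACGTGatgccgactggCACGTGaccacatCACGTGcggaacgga
Mcoln1: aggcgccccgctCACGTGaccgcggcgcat
Ctsd: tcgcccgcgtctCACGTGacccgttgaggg
Ctsa: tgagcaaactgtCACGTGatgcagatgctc
Glb1: ctgcttctgagtCACGTGgcctacagaggc
Lgmn: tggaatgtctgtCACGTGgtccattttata
Atp6v0d1: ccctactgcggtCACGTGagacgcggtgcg
Atp6v1a: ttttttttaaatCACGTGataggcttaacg
The short stretches lie at chr8:3500462-3500491 (Mcoln1, plus strand), chr7:142387908-142387937 (Ctsd, minus strand), chr2:164833749-164833778 (Ctsa, plus strand) and chr9:114401018-114401047 (Glb1, plus strand). The others lie at chr12:102439124-102439153 (Lgmn), chr8:105566050-105566079 (Atp6v0d1) and chr16:44139373-44139402 (Atp6v1a), all on the minus strand.

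The windows of Ctss, Ctsk and Grn, the members that passed the test between AngII and vehicle hearts, held no copy of the core. The same was true of most members and of most genes with a window. The 250 bases before the starts of Ctss, Ctsk and Grn are printed because these genes passed the test. They lie at chr3:95526536-95526785, chr3:95498960-95499209 and chr11:102430257-102430506, all on the plus strand of GRCm38.p6.
Ctss: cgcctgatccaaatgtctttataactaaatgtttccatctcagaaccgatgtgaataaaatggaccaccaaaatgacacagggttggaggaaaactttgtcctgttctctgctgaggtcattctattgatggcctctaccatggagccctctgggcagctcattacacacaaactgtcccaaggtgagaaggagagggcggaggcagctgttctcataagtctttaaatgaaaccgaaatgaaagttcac
Ctsk: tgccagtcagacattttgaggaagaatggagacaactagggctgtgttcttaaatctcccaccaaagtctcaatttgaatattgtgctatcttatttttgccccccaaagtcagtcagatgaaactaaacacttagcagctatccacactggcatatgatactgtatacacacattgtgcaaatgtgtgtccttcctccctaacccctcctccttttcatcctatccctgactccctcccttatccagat
Grn: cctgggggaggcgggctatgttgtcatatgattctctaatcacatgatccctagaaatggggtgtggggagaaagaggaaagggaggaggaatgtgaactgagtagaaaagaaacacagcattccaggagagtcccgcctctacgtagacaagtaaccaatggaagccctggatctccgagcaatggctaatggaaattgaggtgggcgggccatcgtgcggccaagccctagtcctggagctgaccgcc
TGACTCA, a site for AP-1 factors, was found on either strand in the windows of 3 of the 30 members (Glb1, Neu1 and Psap), against 5.95% of all genes. GAGGAAGT, a site for ETS factors of blood cells, was found on either strand in 3 of the 30 (Ctsc, Ctss and Gusb), against 3.69% of all genes. These matches describe letters in a window, and binding was not measured.

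Each library had 24.5 to 28.3 M reads in the denominator of its FPKM, as recovered from the steps of the values. All 35 members were expressed above the filter of a mean of 0.5 FPKM. Their means over the 15 libraries ran from 2.37 FPKM for Atg7 to 277 FPKM for Map1lc3a, 23 of them at 10 FPKM or more and 7 at 100 FPKM or more. The fewest reads behind any value of the 30 members with whole reads were 92, for Ctsk in vehicle replicate 1. AngII replicate 2 stood apart: it had the lowest sum of ventricular cardiomyocyte markers (15387 FPKM, against 25740 FPKM or more in vehicle hearts). Its sums of atrial, adipocyte, mesothelial, B cell and fibroblast markers were the highest. For fibroblast markers AngII replicate 5 was close behind (1326 FPKM in replicate 2, 1282 FPKM in replicate 5). AngII replicate 2 was also the library with the highest value of 16 of the 35 members, so the main results for the members are given with and without it. The mitochondrial genome's own transcripts took 42.4% ± 3.1 of the FPKM in AngII plus OA hearts, 41.1% ± 5.2 in AngII hearts and 47.1% ± 2.52 in vehicle hearts (SD, n = 5 each). None of the 3 differences passed an exact 2-sided permutation test after Benjamini-Hochberg adjustment (0.0952 for AngII plus OA against vehicle, 0.0952 for AngII against vehicle, 0.651 for AngII plus OA against AngII).

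Ctss, Ctsk and Grn rose with AngII relative to vehicle hearts, no member fell, and 32 of the 35 had a log2 change above 0, against 65.7% of all 13121 genes tested. The test was limma on log2(FPKM + 1), with p-values adjusted over all genes and called under 0.05; changes are given on that scale, which understates those of genes with low values. It called 1.5% of all genes, 1.27% higher in AngII hearts and 0.236% lower, 166 and 31 genes. Under quantile normalization 69 were called higher and 40 lower, after rescaling without mitochondrially encoded genes 86 and 37, and after a shift to a common median 103 and 57. The median log2 change of the members was 0.24, beside 0.07 over all genes. Under those 3 other scalings 27 or 28 members were above 0, with medians of 0.09 to 0.15, where 47.8% to 51.7% of all genes were. At an unadjusted p under 0.05, 16 members differed, all of them higher, while 13.3% of all genes (1748) were higher at that level. Under quantile normalization 8 members differed at that level and 892 genes were higher, after rescaling 9 members and 986 genes, and after the shift 10 members and 948 genes. In 7 members (Ctsb, Ctsk, Lgmn, Lipa, Npc2, Grn and Atp6v0d1) the 5 AngII hearts were above every vehicle heart in FPKM, as in 3.13% of all genes. A shift in the mitochondrially encoded share moves every other value, and vehicle replicate 4 had a larger share than any AngII heart. Whether this separation, here and gene by gene below, holds under the 3 other scalings was not tested. In whole ventricle, more cells of a type and more RNA per cell cannot be told apart.

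**Figure D1:**
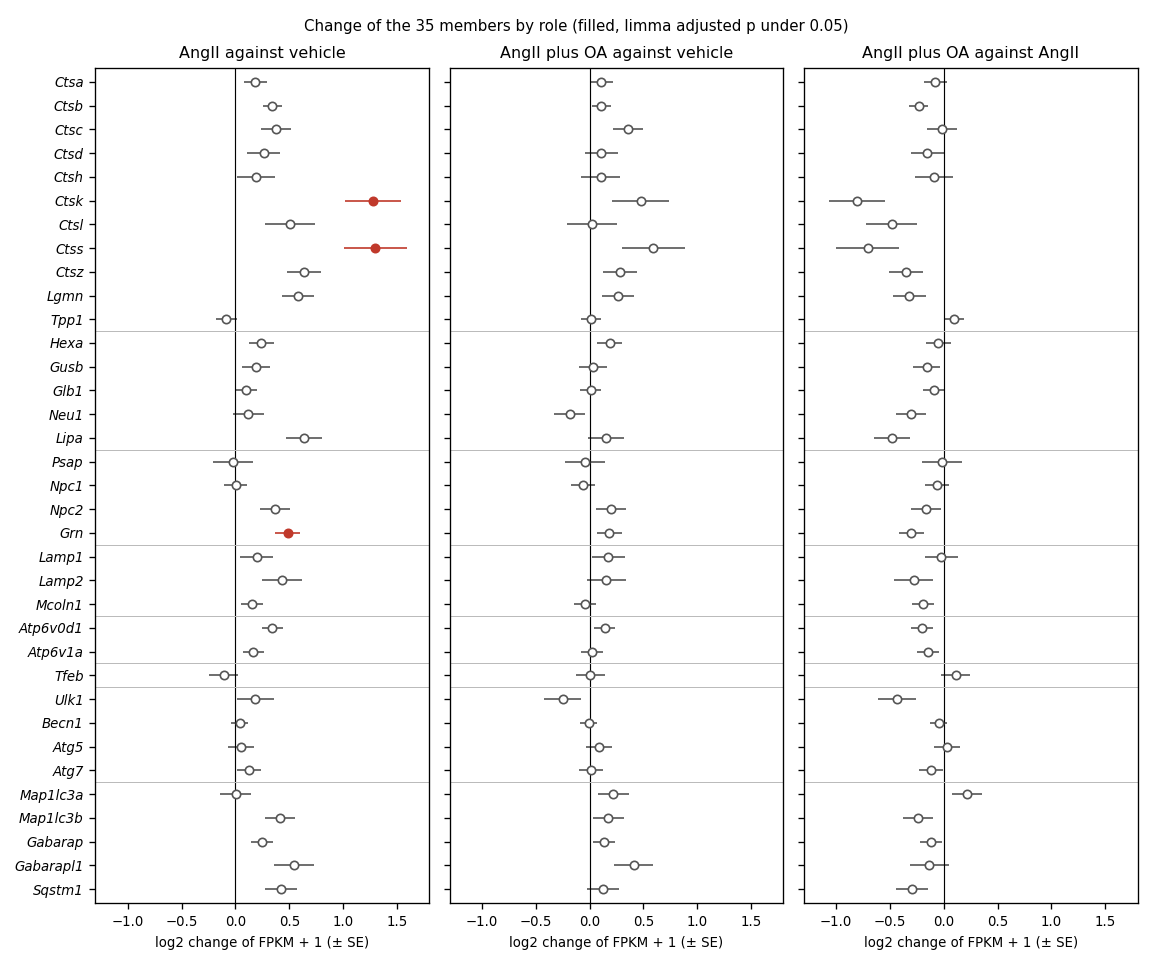
Log2 change of FPKM + 1 (x axis, ± SE from limma) of the 35 members (rows, in blocks by role) in AngII against vehicle, AngII plus OA against vehicle, and AngII plus OA against AngII hearts; filled points passed an adjusted p of 0.05. Ctsk, Ctss and Grn are filled in the panel of AngII against vehicle, and no point is filled in the other panels.

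Cathepsin S (Ctss), a cysteine protease that trims the invariant chain of class II molecules in antigen-presenting cells, had 29.4, 18.8, 22.1, 29.2 and 16.5 FPKM in AngII plus OA hearts, 34.2, 79.8, 23.8, 31.8 and 35.8 FPKM in AngII hearts, and 11, 9.27, 16.6, 23.9 and 16.3 FPKM in vehicle hearts. AngII replicate 2 was far above every other library, and AngII replicate 3 lay below the highest vehicle heart, so the groups overlapped. The mean was 23.2 ± 5.94 FPKM in AngII plus OA hearts, 41.1 ± 22.1 FPKM in AngII hearts and 15.4 ± 5.75 FPKM in vehicle hearts (SD, n = 5 each). Ctss was 2.66-fold higher in AngII than in vehicle hearts by the ratio of means, with a log2 change of 1.30 ± 0.29 (SE, limma adjusted p = 0.0371).

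Cathepsin K (Ctsk), known in osteoclasts for cutting collagen, had 6.82, 3.40, 5.71, 7.55 and 2.96 FPKM in AngII plus OA hearts, 7.11, 15.7, 5.85, 8.49 and 13.4 FPKM in AngII hearts, and 2.33, 3.15, 3.59, 4.69 and 3.18 FPKM in vehicle hearts. All AngII hearts were above all vehicle hearts, and AngII replicates 2 and 5 were the highest of the 15. The mean was 5.29 ± 2.04 FPKM in AngII plus OA hearts, 10.1 ± 4.25 FPKM in AngII hearts and 3.39 ± 0.860 FPKM in vehicle hearts (SD, n = 5 each). With AngII the log2 change was 1.28 ± 0.26 (SE, limma adjusted p = 0.0287), and the ratio of means was 2.98.

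Cathepsin B (Ctsb), a broadly expressed cysteine protease, had 104, 88.0, 98.5, 102 and 90.3 FPKM in AngII plus OA hearts, 124, 112, 106, 115 and 110.3 FPKM in AngII hearts, and 86.2, 85.1, 94.0, 97.7 and 83.8 FPKM in vehicle hearts. AngII hearts lay above every heart of both other groups. The log2 change of AngII from vehicle was 0.34 ± 0.09 (SE) and missed the threshold (limma adjusted p = 0.0719). Legumain (Lgmn), which cleaves after asparagine and activates cathepsins, had 32.8, 30.5, 28.1, 28.5 and 25.3 FPKM in AngII plus OA hearts, 35.7, 56.3, 29.8, 32.9 and 32.0 FPKM in AngII hearts, and 22.4, 21.7, 26.1, 28.2 and 22.0 FPKM in vehicle hearts. The AngII hearts were again above all vehicle hearts, with AngII replicate 2 well above the other AngII hearts. Its log2 change was 0.58 ± 0.15 (SE, limma adjusted p = 0.0676).

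Cathepsin D (Ctsd), an aspartic protease and the most abundant protease of the list, had 173, 164, 182, 203 and 228 FPKM in AngII plus OA hearts, 218, 223, 171, 212 and 231 FPKM in AngII hearts, and 188, 224, 147, 130.1 and 204 FPKM in vehicle hearts. The groups overlapped widely, and vehicle hearts alone spanned 130.1 to 224 FPKM. Its log2 change with AngII was 0.26 ± 0.15 (SE, limma adjusted p = 0.404). Of the remaining proteases, the carboxypeptidase Ctsz came nearest to the threshold, with a log2 change of 0.64 ± 0.16 (SE, limma adjusted p = 0.0646) and 4 of 5 AngII hearts above every vehicle heart. Ctsc, the dipeptidyl peptidase that activates granule proteases of leukocytes, had 10.1 ± 1.56 FPKM in AngII plus OA hearts, 10.3 ± 2.09 FPKM in AngII hearts and 7.64 ± 0.911 FPKM in vehicle hearts (SD, n = 5 each), so AngII hearts with and without OA had nearly the same mean. Without AngII replicate 2, at 7.01 FPKM, the AngII mean of Ctsc was 11.1 FPKM. The log2 change of AngII plus OA from AngII was then -0.14, beside -0.02 with that library. Cathepsin L (Ctsl) had a log2 change of 0.51 ± 0.23 (SE, limma adjusted p = 0.294), and its AngII replicate 2 reached 246 FPKM where the other AngII hearts had 97.1 to 105 FPKM. Ctsa, the carboxypeptidase that protects galactosidase and sialidase, and the aminopeptidase Ctsh had log2 changes of 0.19 and 0.19 with AngII, and that of Ctsh was 0.057 without AngII replicate 2. Tpp1, a tripeptidyl peptidase, was the only protease with a change below 0 (-0.08, and -0.030 without that library). In all, 2 of the 11 proteases rose with AngII, beside 1.27% of all genes, and none fell. At an unadjusted p under 0.05 in limma 7 were higher, beside 13.3% of all genes.

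**Figure D2:**
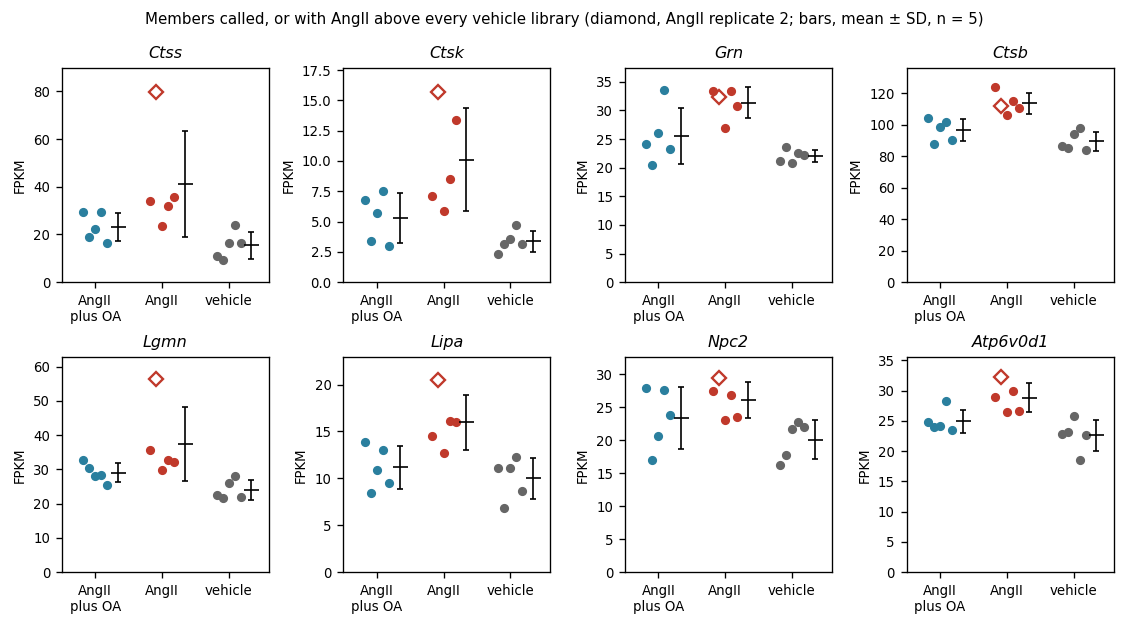
FPKM (y axis) of 8 members in the 5 AngII plus OA, 5 AngII and 5 vehicle libraries (points; open diamond, AngII replicate 2), with the mean ± SD of each group. AngII hearts lie above every vehicle heart for all but Ctss, whose lowest AngII heart (23.8 FPKM) is beside a vehicle heart at 23.9 FPKM.

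Among the enzymes that digest sugars and lipids, lysosomal acid lipase differed most, and none of the 5 passed the test. Lipa, which hydrolyses cholesteryl esters and triglycerides taken up with lipoproteins, had 13.9, 8.47, 10.9, 13 and 9.54 FPKM in AngII plus OA hearts, 14.5, 20.5, 12.7, 16.1 and 16.0 FPKM in AngII hearts, and 11.1, 6.79, 11.1, 12.3 and 8.59 FPKM in vehicle hearts. AngII hearts were above all vehicle hearts, while AngII plus OA hearts overlapped both groups. The log2 change of AngII from vehicle was 0.64 ± 0.17 (SE, limma adjusted p = 0.0739). Hexa, the alpha subunit of hexosaminidase and the most abundant glycosidase, had 32.5, 29.1, 31.6, 36.5 and 35.7 FPKM in AngII plus OA hearts, 38.9, 25.1, 33.5, 38.7 and 36.9 FPKM in AngII hearts, and 26.4, 30.9, 28.7, 28.9 and 29.5 FPKM in vehicle hearts. AngII replicate 2 was the lowest of all 15 hearts and the other 4 AngII hearts were above every vehicle heart. The log2 change of Hexa was 0.24 ± 0.12 (SE, limma adjusted p = 0.320). The glucuronidase Gusb, the galactosidase Glb1 and the sialidase Neu1 had log2 changes of 0.19, 0.10 and 0.12 with AngII. The value of Neu1 was below 0 under quantile normalization and without AngII replicate 2.

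Progranulin (Grn), a secreted and lysosomal glycoprotein whose granulin peptides act in lysosomal lipid handling, had 24.2, 20.5, 26.0, 33.6 and 23.2 FPKM in AngII plus OA hearts, 33.3, 32.4, 26.9, 33.4 and 30.7 FPKM in AngII hearts, and 21.2, 23.6, 20.9, 22.5 and 22.1 FPKM in vehicle hearts. Vehicle hearts were within 20.9 to 23.6 FPKM and all AngII hearts were above them, while AngII plus OA replicate 4 reached the AngII level and the other AngII plus OA hearts lay between 20.5 and 26.0 FPKM. Means were 25.5 ± 4.96 FPKM in AngII plus OA hearts, 31.3 ± 2.69 FPKM in AngII hearts and 22.1 ± 1.09 FPKM in vehicle hearts (SD, n = 5 each). The log2 change of AngII from vehicle was 0.48 ± 0.12 (SE, limma adjusted p = 0.0488). Npc2, the soluble protein that hands cholesterol to the membrane protein Npc1, had 28.0, 17.0, 20.6, 27.5 and 23.8 FPKM in AngII plus OA hearts, 27.4, 29.5, 23.1, 26.9 and 23.5 FPKM in AngII hearts, and 16.2, 17.8, 21.7, 22.7 and 22.1 FPKM in vehicle hearts. Its AngII hearts were all above its vehicle hearts by a narrow margin, and AngII plus OA hearts overlapped both groups. The log2 change was 0.36 ± 0.14 (SE, limma adjusted p = 0.199). Psap, the precursor of the saposins that activate sphingolipid hydrolases, had 276, 211, 280.5, 272 and 272 FPKM in AngII plus OA hearts, 344, 204, 335, 262 and 209 FPKM in AngII hearts, and 265, 212, 305, 377 and 219 FPKM in vehicle hearts. The spread within the AngII and vehicle groups was far larger than the difference between them, a log2 change of -0.03 ± 0.18 (SE) whose sign differed between settings. Npc1 was low throughout, at 2.37 ± 0.275 FPKM in AngII plus OA hearts, 2.52 ± 0.373 FPKM in AngII hearts and 2.53 ± 0.518 FPKM in vehicle hearts (SD, n = 5 each).

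Neither of the main lysosomal membrane glycoproteins nor the calcium channel Mcoln1 passed the test. Lamp1, whose promoter held 4 copies of the core, had 114, 87.8, 117, 101 and 99.8 FPKM in AngII plus OA hearts, 130.4, 87.3, 122, 105 and 87.2 FPKM in AngII hearts, and 86.2, 77.6, 105, 118 and 76.9 FPKM in vehicle hearts. AngII replicates 1 and 3 were above every vehicle heart, and the other 3 AngII hearts lay within the vehicle range, with a log2 change of AngII from vehicle of 0.20 ± 0.15 (SE, limma adjusted p = 0.545). Lamp2, needed for the fusion of autophagosomes with lysosomes, had 20.5, 14.8, 17.8, 16.7 and 15.8 FPKM in AngII plus OA hearts, 19.7, 32.8, 18.5, 19.4 and 17.0 FPKM in AngII hearts, and 13.3, 10.7, 18.4, 20.5 and 15.0 FPKM in vehicle hearts. Of the AngII hearts, replicate 2 alone lay above the highest vehicle heart. Its log2 change was 0.43 ± 0.18 (SE, limma adjusted p = 0.243), and 0.28 without that library. Mcoln1, which releases calcium from the lysosome, had 3.31 ± 0.439 FPKM in AngII plus OA hearts, 3.94 ± 0.558 FPKM in AngII hearts and 3.43 ± 0.376 FPKM in vehicle hearts (SD, n = 5 each).

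The vacuolar proton pump acidifies the lysosome. Its membrane-sector subunit Atp6v0d1 had 24.8, 24.1, 24.2, 28.2 and 23.5 FPKM in AngII plus OA hearts, 29.0, 32.2, 26.4, 30.0 and 26.7 FPKM in AngII hearts, and 22.9, 23.1, 25.8, 18.6 and 22.6 FPKM in vehicle hearts. All AngII hearts were above all vehicle hearts, and 4 of the 5 AngII plus OA hearts were below every AngII heart. The log2 change was 0.34 ± 0.10 (SE) and missed the threshold (limma adjusted p = 0.0972). The catalytic subunit Atp6v1a had 4.02 ± 0.359 FPKM in AngII plus OA hearts, 4.57 ± 0.695 FPKM in AngII hearts and 3.95 ± 0.409 FPKM in vehicle hearts (SD, n = 5 each), with a log2 change of 0.17 with AngII.

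Tfeb, the transcription factor that drives lysosomal and autophagy genes when it enters the nucleus, was 1 of the 3 members with a log2 change below 0 with AngII. It had 5.60, 4.14, 4.19, 5.16 and 4.92 FPKM in AngII plus OA hearts, 4.5, 3.22, 4.11, 5.33 and 4.79 FPKM in AngII hearts, and 4.61, 6.45, 3.92, 3.85 and 5.33 FPKM in vehicle hearts. Vehicle replicate 2 was the highest library, AngII replicate 2 the lowest, and the groups overlapped. The log2 change was -0.11 ± 0.14 (SE, limma adjusted p = 0.740), and -0.023 without AngII replicate 2. Transcript levels do not show where the protein is in the cell, and the protein was not measured.

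The genes that start autophagy and conjugate its ubiquitin-like proteins showed small changes, and none of the 4 had an unadjusted p under 0.05 with AngII. Ulk1, the kinase that starts autophagosome formation, had 8.44, 8.10, 9.30, 10.1 and 8.24 FPKM in AngII plus OA hearts, 9.95, 20.6, 11.1, 8.91 and 13.5 FPKM in AngII hearts, and 9.87, 11.8, 13, 8.98 and 10.1 FPKM in vehicle hearts. AngII replicate 2 was the highest library, and AngII plus OA replicates 2 and 5 were the lowest. Its log2 change with AngII was 0.18 ± 0.17 (SE, limma adjusted p = 0.636) and was 0.01 without AngII replicate 2. Becn1, a subunit of the lipid kinase complex that marks the forming membrane, had 3.83, 3.48, 3.47, 3.55 and 3.08 FPKM in AngII plus OA hearts, 3.89, 3.69, 3.51, 3.84 and 3.24 FPKM in AngII hearts, and 3.13, 3.44, 3.85, 3.65 and 3.48 FPKM in vehicle hearts. These 15 values lay within 3.08 and 3.89 FPKM, and the groups could not be separated. Atg7, the activating enzyme of both conjugation systems, had a log2 change of 0.13, and Atg5, a partner in the complex that lipidates ATG8 proteins, had one of 0.05, whose sign turned under the 3 other scalings.

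Among the ATG8 proteins and the cargo receptor, 4 of 5 were higher with AngII at an unadjusted p under 0.05, beside 13.3% of all genes. None of the 5 passed the adjusted test. Map1lc3a, the most abundant member of the whole list, was the exception and had 332, 266, 253, 311 and 369 FPKM in AngII plus OA hearts, 285, 255, 263, 264 and 238 FPKM in AngII hearts, and 236, 313, 257, 197 and 319 FPKM in vehicle hearts. The highest values were in AngII plus OA hearts and in vehicle replicates 2 and 5. Its log2 change of AngII from vehicle was 0.00 ± 0.14 (SE), and of AngII plus OA from AngII 0.22 ± 0.14 (SE, unadjusted p = 0.148 in limma). Map1lc3b, the form most used to follow autophagosomes, had 28.8, 24.4, 26.9, 27.8 and 26.8 FPKM in AngII plus OA hearts, 31.2, 49.7, 29.2, 26.1 and 27.8 FPKM in AngII hearts, and 24.9, 20.7, 26.5, 23.3 and 23.4 FPKM in vehicle hearts. AngII replicate 2 stood alone at 49.7 FPKM and AngII replicate 4 was inside the vehicle range. Its log2 change was 0.41 ± 0.14 (SE, limma adjusted p = 0.153), and 0.26 without AngII replicate 2. Sqstm1, a receptor that carries ubiquitinated cargo into autophagosomes and is itself degraded there, had 131, 106, 115, 107 and 122 FPKM in AngII plus OA hearts, 144, 205, 131, 113 and 134 FPKM in AngII hearts, and 119, 114, 121, 93.7 and 86.9 FPKM in vehicle hearts. The highest value was again in AngII replicate 2, and AngII replicate 4 lay among the vehicle hearts. The log2 change of Sqstm1 was 0.42 ± 0.15 (SE, limma adjusted p = 0.161), and 0.29 without that library. Gabarap had 116 ± 8.79 FPKM in AngII plus OA hearts, 126 ± 14.5 FPKM in AngII hearts and 106 ± 8.0 FPKM in vehicle hearts, and Gabarapl1 had 51.4 ± 12.3 FPKM in AngII plus OA hearts, 56.0 ± 10.7 FPKM in AngII hearts and 38.4 ± 9.03 FPKM in vehicle hearts (SD, n = 5 each). Gabarapl1 had the largest log2 change of these 5 genes with AngII, 0.54 ± 0.18 (SE, limma adjusted p = 0.146).

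Against vehicle hearts, AngII plus OA hearts had no member past the test. Limma called 0 of 13121 genes (0% in either direction) in this comparison, with 441 genes (3.36%) at an unadjusted p under 0.05. At that level 2 members were higher, Ctsc with a log2 change of 0.35 ± 0.14 and Gabarapl1 with 0.41 ± 0.18 (SE), and 2.58% of all genes were. Of the 35 members 29 had a change above 0, beside 58.3% of all genes, and their median was 0.11, beside 0.02. Under the 3 other scalings 21 to 23 members and 33.3% to 50% of all genes were above 0. At most 1 member had an unadjusted p under 0.05 in these fits, and 419 to 459 of all genes had one. The largest changes were those of Ctss (0.59 ± 0.29, SE) and Ctsk (0.47 ± 0.26, SE), and the lowest that of Ulk1 (-0.25 ± 0.17, SE). No member had its AngII plus OA hearts all above or all below its vehicle hearts, as 0.838% of all genes had.

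Between AngII plus OA and AngII hearts, limma likewise called 0 of 13121 genes (0% in either direction), with 866 (6.6%) at an unadjusted p under 0.05. At that level 8 members were lower in AngII plus OA hearts and none was higher, while 5.25% of all genes were lower. By log2 change these were Ctsk (-0.80 ± 0.26), Ctss (-0.71 ± 0.29), Lipa (-0.48 ± 0.17), Ulk1 (-0.43 ± 0.17), Ctsz (-0.35 ± 0.16), Neu1 (-0.31 ± 0.14), Grn (-0.30 ± 0.12) and Ctsb (-0.23 ± 0.09; all SE). The smallest adjusted p of a member in limma was 0.706, for both Ctsk and Lipa. Under quantile normalization 3 members and 709 of all genes had an unadjusted p under 0.05. After rescaling without mitochondrially encoded genes there were 9 members and 865 genes, and after a shift to a common median 4 members and 747 genes. Ctsb was the one member whose AngII plus OA hearts (88.0 to 104 FPKM) were all below its AngII hearts (106 to 124 FPKM), as in 1.04% of all genes. The median log2 change of the members was -0.15, beside -0.05 over all genes, and 31 of the 35 were below 0, where 36.6% of all genes were above 0. The count of members below 0 was 25 under quantile normalization or the shift, where 50.2% and 52.2% of all genes were above 0. Both this comparison and AngII against vehicle use the same AngII libraries, so a high AngII heart moves them in opposite directions. Ctss, for example, had log2 changes of 1.30 in AngII against vehicle, 0.59 in AngII plus OA against vehicle and -0.71 in AngII plus OA against AngII.

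Leaving out AngII replicate 2 changed which members were called in AngII against vehicle hearts. With the other 4 AngII hearts, 31 of 35 members had a change above 0, beside 72.5% of all genes. Their median was 0.25, beside 0.095 over all genes. Limma then called 245 of all genes, 222 of them higher, where it called 197 with that library. Ctss (log2 change 1.03 ± 0.24, adjusted p = 0.0439) and Ctsk (1.11 ± 0.25, adjusted p = 0.0401) stayed called by limma, and Ctsc (0.49 ± 0.12, adjusted p = 0.0462) and Lgmn (0.43 ± 0.10, adjusted p = 0.0499) joined them. Grn kept its change (0.47 ± 0.12, SE) at an adjusted p of 0.0584 in limma. The change of Ctsl was 0.25 ± 0.15 (SE) without that library, and that of Ulk1 0.01 ± 0.12 (SE). In AngII plus OA against AngII, the change of Ctss was -0.44 ± 0.24 and that of Ctsk -0.64 ± 0.25 (SE) without it. That of Ulk1 was -0.26 ± 0.12 and that of Neu1 -0.15 ± 0.09 (SE). The share that the other tissue markers of this library had in its high values was not tested.

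**Figure D3:**
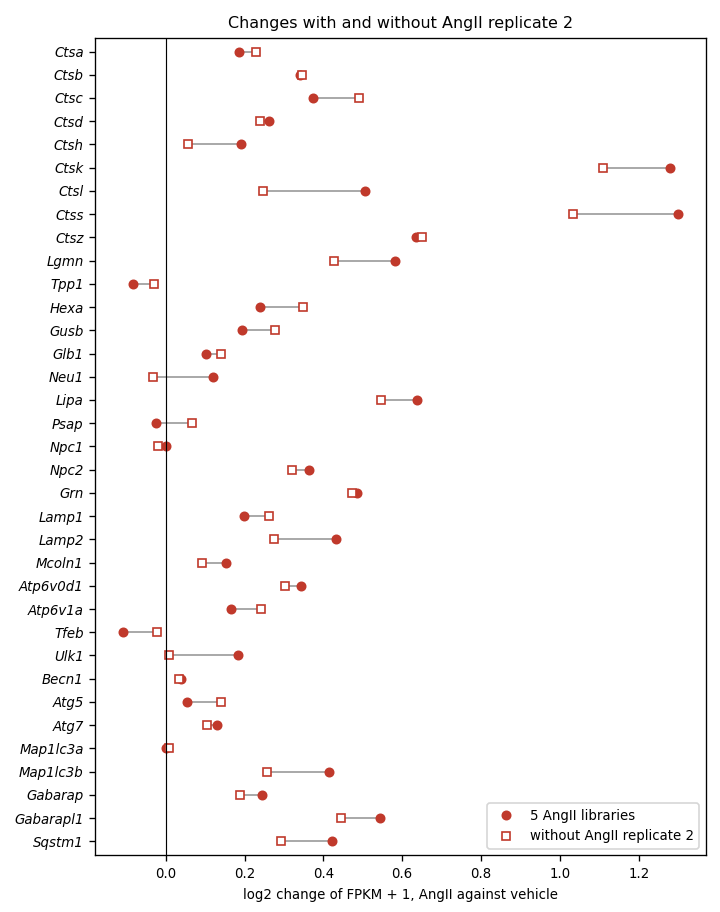
Log2 change of FPKM + 1 in AngII against vehicle hearts (x axis) of the 35 members (rows), with 5 AngII libraries (filled circles) and without AngII replicate 2 (open squares). The longest lines belong to Ctss, Ctsl, Ulk1, Ctsk and Lamp2, and Ctsk and Ctss have the largest changes in both.

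Macrophages are rich in lysosomal proteases, and whether macrophage markers followed the members from library to library was not tested. Of 16 macrophage markers 5 (C1qa, C1qb, C1qc, Cd163 and Itgam) rose with AngII by limma, beside 1.27% of all genes, and none fell. The median log2 change of the 16 was 0.63. Their summed level ranged over 396 to 657 FPKM in AngII plus OA hearts, 514 to 768 FPKM in AngII hearts and 320.1 to 461 FPKM in vehicle hearts, led by Lyz2, C1qa and C1qb. Of 9 fibroblast markers 4 rose (Col1a1, Col1a2, Col3a1 and Pi16), beside the same 1.27% of all genes. The sum of the 9 ranged over 624 to 1197, 848 to 1326 and 447 to 837 FPKM in AngII plus OA, AngII and vehicle hearts, led by Dcn, Dpt and Lum. No marker of either list was at 0 in every library. None of the 8 ventricular cardiomyocyte markers passed the test, and all 8 had log2 changes below 0 with AngII. AngII replicate 2 had the lowest sum of the 8, at 15387 FPKM. The median sums were 27933 FPKM in AngII hearts and 28361 FPKM in vehicle hearts. The calls and changes of these marker lists are given with AngII replicate 2 only. Markers of dendritic cells and antigen presentation, cells known for Ctss, had 0 of 4 tested members called. At an unadjusted p under 0.05 in limma 3 were higher with AngII, beside 13.3% of all genes. The list summed to 148 to 330 FPKM in AngII plus OA hearts, 221 to 444 FPKM in AngII hearts and 170.4 to 288 FPKM in vehicle hearts. The remaining marker lists with tested members had none past the test.

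Both called proteases were also set against the summed transcripts of C1qa, C1qb and C1qc, the chains of a complement protein that macrophages of the heart express. Ctss per C1q was 0.104 ± 0.0153 in AngII plus OA hearts, 0.151 ± 0.0871 in AngII hearts and 0.0999 ± 0.0380 in vehicle hearts (SD, n = 5 each). Apart from AngII replicate 2, at 0.306, the AngII hearts (0.103 to 0.124) lay inside the vehicle range of 0.0518 to 0.156. The top of that range was vehicle replicate 4. AngII replicates 1, 3 and 5 were above the next highest vehicle heart, replicate 3 at 0.107. The log2 difference of AngII from vehicle was 0.54 (exact 2-sided permutation p = 0.230, adjusted over 6 ratio tests 0.345). With 1 library left out it spanned 0.25 to 0.72, and was 0.25 without AngII replicate 2 and 0.33 without vehicle replicate 2. Ctsk per C1q was 0.0234 ± 0.00619 in AngII plus OA hearts, 0.0365 ± 0.0147 in AngII hearts and 0.0217 ± 0.00541 in vehicle hearts (SD, n = 5 each). Of the AngII hearts 2 (replicates 2 and 5) were above every vehicle heart. The log2 difference was 0.69 (exact 2-sided permutation p = 0.0397, adjusted 0.238), and 0.49 to 0.83 with 1 library left out. In AngII plus OA against vehicle hearts the log2 differences were 0.14 for Ctss and 0.09 for Ctsk, and in AngII plus OA against AngII hearts -0.40 and -0.60, with adjusted p-values of 0.310 to 0.738 (exact permutation tests). Without AngII replicate 2 the differences of AngII plus OA from AngII hearts were -0.11 for Ctss and -0.40 for Ctsk. The smallest p that 5 against 5 libraries allow is 0.00794. What part of the changes in Ctss and Ctsk came with macrophages was not tested beyond these ratios, and no ratio to fibroblast markers was taken.

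**Figure D4:**
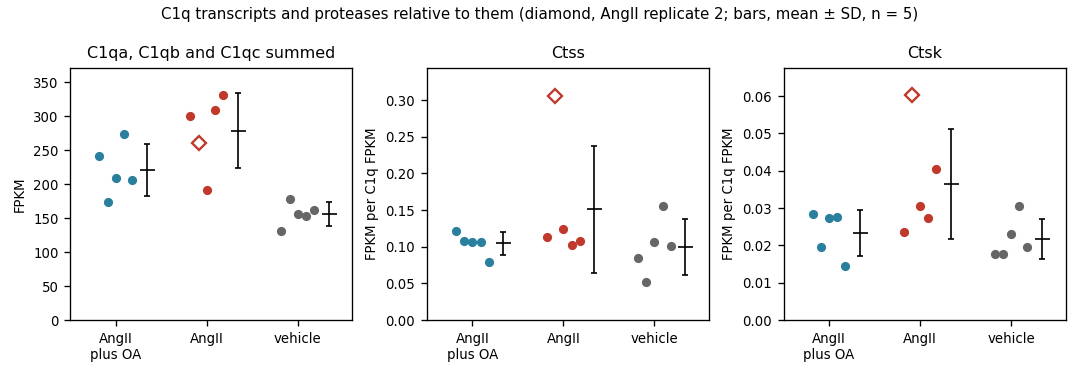
Summed FPKM of C1qa, C1qb and C1qc (left), and FPKM of Ctss (middle) and Ctsk (right) per FPKM of that sum, in AngII plus OA, AngII and vehicle libraries (points; open diamond, AngII replicate 2; bars, mean ± SD, n = 5). Apart from AngII replicate 2, the AngII libraries of Ctss lie within the vehicle range of 0.0518 to 0.156, whose top is vehicle replicate 4.

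The calls of Ctss, Ctsk and Grn lay close to the threshold. Over the 10 fits that left out 1 library each, Ctsk was called in 5, Ctss in 3 and Grn in 1, and their log2 changes stayed within 1.11 to 1.43, 1.03 to 1.47 and 0.46 to 0.54. Over the 9 other alternatives Ctsk was called in 7 and Ctss and Grn in 3 each. After rescaling the FPKM without mitochondrially encoded genes, the log2 changes were 1.35 for Ctsk, 1.25 for Ctss and 0.41 for Grn, with limma adjusted p-values of 0.0493, 0.0807 and 0.125. The added 1 weighs differently on rescaled values than on FPKM, so the sizes of these changes are not directly comparable with those of FPKM + 1. The direction held in each of these fits for the 3 genes.

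**Figure D5:**
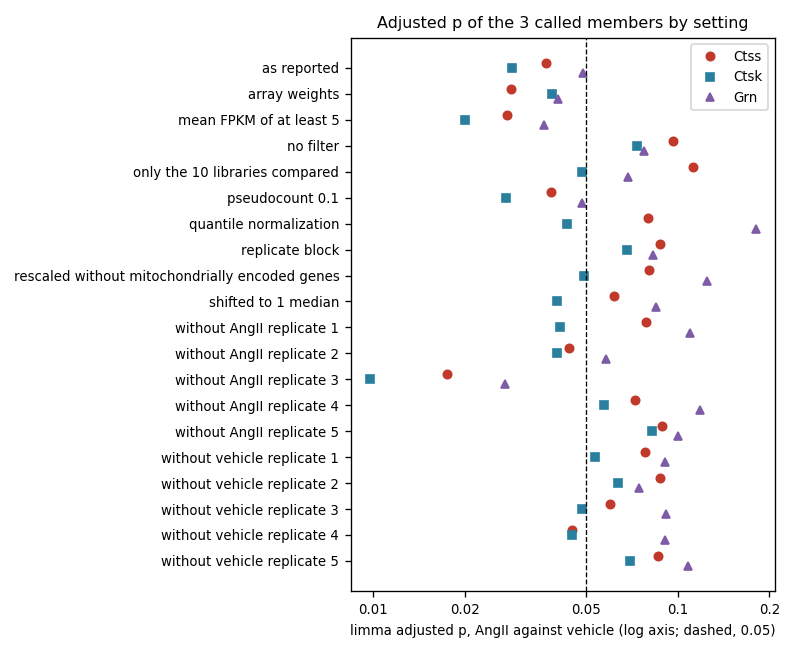
Limma adjusted p of Ctss, Ctsk and Grn in AngII against vehicle hearts (x axis, log scale; dashed line, 0.05) under each setting (rows). Ctsk is left of the line in most rows, and Grn is right of it in 9 of the 10 rows that leave out a library.

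Of 168 further genes of the lysosome and of autophagy, in 8 lists, 156 were tested, and 1 rose with AngII, where 1.27% of all genes rose. It was Laptm5, a lysosomal membrane protein of blood cells, with 6.81, 4.79, 5.81, 8.51 and 6.05 FPKM in AngII plus OA hearts, 10.5, 7.95, 6.54, 9.33 and 7.95 FPKM in AngII hearts, and 3.61, 4.47, 5.74, 6.29 and 4.54 FPKM in vehicle hearts. All AngII hearts were above all vehicle hearts, at a log2 change of 0.68 ± 0.15 (SE, limma adjusted p = 0.0387). Of the 156 genes 124 had a change above 0, beside 65.7% of all genes, and the median was 0.13, beside 0.07. In AngII plus OA against vehicle and against AngII limma called none of them, with 5 and 9 of the 156 at an unadjusted p under 0.05, where 3.36% and 6.6% of all genes were. The most abundant gene of each list without a call did not pass either: the sphingomyelinase Smpd1 (log2 change -0.07 with AngII), the cathepsin inhibitor Cst3 (0.45), the pump subunit Atp6v1g1 (0.13), the retromer subunit Vps26a (0.02), the mTOR pathway inhibitor Ddit4 (1.35), the late endosome protein Rab7 (0.21) and the mitophagy kinase Pink1 (-0.36). Pink1 had 195 ± 36.7 FPKM in AngII plus OA hearts, 157 ± 11.2 FPKM in AngII hearts and 201 ± 23.7 FPKM in vehicle hearts (SD, n = 5 each), and its AngII hearts were all below its vehicle hearts, as in 0.663% of all genes. Cst3, which blocks cysteine cathepsins outside the cell, had 489 ± 80.9 FPKM in AngII plus OA hearts, 568 ± 152 FPKM in AngII hearts and 409 ± 62.5 FPKM in vehicle hearts (SD, n = 5 each).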

How the data were processed

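Poly(A)-enriched RNA from mouse ventricle was sequenced on an Illumina instrument, per the labels' protocols, with 5 biological replicates in each of 3 groups taken from the sample titles. The deposited FPKM were computed by the authors for each gene and library. The submitters' processing notes list HISAT2 2.0.4 and mm8. How reads were counted, on which annotation and strand, and what computed the FPKM is not given in the labels or headers. FPKM shares 1 total per library, so a shift in the mitochondrially encoded share moves every other value. The table's identifiers were paired with symbols through GENCODE M21, which matched 36464 of 36653. That annotation is on another build than the notes name, so it served for symbols and exon lengths only, and printed coordinates belong to RefSeq promoters on GRCm38.p6.

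With those exon lengths, 24990 of 28866 genes above 0 gave whole reads in every library within a tolerance of 0.02 reads, which gave the libraries' denominators. Among members 30 of 35 did so, all but Ctsb, Ctsl, Lipa, Npc1 and Npc2. In a chi-square test all replicate pairs differed by more than sampling noise, and each library counted once. The p-values set differences between groups against the spread between these libraries, which the labels call biological replicates.

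The log2(FPKM + 1) of the 13121 genes averaging 0.5 FPKM or more was fitted in limma 3.58.1 (R 4.3.3), with its trend option. All 15 libraries entered 1 fit with group as its term, tests were 2-sided, and calls needed a p under 0.05 after Benjamini-Hochberg adjustment over all genes of a comparison. The script was tested on simulated data. Ratios to C1q and mitochondrially encoded shares were compared by exact permutation of libraries. Alternatives covered the pseudocount, the filter, 3 scalings, a fit of only the 10 libraries compared, a replicate block, array weights and each library left out. Values in every library are given for members that were called, did not overlap between groups or were the most abundant of their role, and for Tfeb, Lamp1, Lamp2, Sqstm1, Map1lc3b and Becn1. Of other pathway genes, those called and the most abundant of each list without a call are named. The members and lists were chosen with earlier results of these data known.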

Additional observations from a re-analysis of the deposited data

Results flagged for a closer look

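Of 114 groups of 5 values examined, 13 had a library standing apart from the other 4 by Dixon's ratio (above 0.71). In a single group chance exceeds that ratio about 1 time in 20. The groups share libraries and are not independent. In AngII replicate 2 this was so for 7 members: Ctsl at 246 FPKM (the others at most 105), Ctss at 79.8 FPKM (at most 35.8), Lgmn at 56.3 FPKM (at most 35.7), Map1lc3b at 49.7 FPKM (at most 31.2), Lamp2 at 32.8 FPKM (at most 19.7), Ctsh at 17.2 FPKM (at most 10.7) and Neu1 at 11.5 FPKM (at most 6.90). The level of Ctss per C1q was also apart in that library, at 0.306, where the other AngII hearts had at most 0.124.

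Outside that library, AngII replicate 4 was low for Npc1, at 1.87 FPKM, where the other AngII hearts had at least 2.58 FPKM. AngII plus OA replicate 2 was low for Psap, at 211 FPKM (the others at least 272 FPKM), and for Atp6v1a, at 3.41 FPKM (the others at least 4.05 FPKM). AngII plus OA replicate 4 was high for Atp6v0d1, at 28.2 FPKM (the others at most 24.8 FPKM), and for Atg7, at 2.84 FPKM (the others at most 2.23 FPKM).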

How the results depend on the processing

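The number of members called in AngII against vehicle hearts was 3 as reported. It was 7 with array weights, where 281 of all genes were called. It was 3 with a pseudocount of 0.1 (202 of all genes) or a filter of 5 FPKM (138 of 5833). With quantile normalization (109 of all genes), rescaling (123) or a shift to a common median (160) it was 1 (Ctsk). The same member alone was called with only the 10 libraries compared (70 of all genes). Without a filter it was 0, and 72 of 28996 genes were called. Leaving out 1 library gave 0 to 6 members and 49 to 425 of all genes, both highest without AngII replicate 3. In the other comparisons no alternative called a member. The only gene called there was 1 in AngII plus OA against AngII without AngII replicate 3. With the replicate block 0 members and 38 of all genes were called (197 without it); same-numbered libraries did not deviate together in every pair (correlations of -0.35 to 0.44), so the numbers were not taken as pairing. The causes of these differences were not tested.

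Small changes turned sign. In AngII against vehicle hearts these were Neu1 (-0.029 with array weights, -0.0028 with quantile normalization), Psap (0.16 with array weights) and Ulk1 (-0.0055 with array weights). Under quantile normalization, rescaling and the shift, Npc1 was -0.063, -0.079 and -0.084, Becn1 -0.044, -0.039 and -0.047, Atg5 -0.058, -0.029 and -0.031, and Map1lc3a -0.14, -0.089 and -0.084. In AngII plus OA against AngII, Ctsc was 0.060 with quantile normalization and 0.041 with the shift. With 1 library left out, the log2 changes of AngII from vehicle spanned -0.031 to 0.20 for Neu1, -0.12 to 0.096 for Psap, -0.048 to 0.073 for Npc1, -0.018 to 0.14 for Atg5 and -0.099 to 0.075 for Map1lc3a, and that of Ctsc in AngII plus OA against AngII -0.14 to 0.055. The log2 difference of Ctss per C1q in AngII plus OA against vehicle spanned -0.074 to 0.32. The difference in the mitochondrially encoded share spanned -5.79 to -3.69 percentage points in AngII plus OA against vehicle, -7.74 to -4.29 in AngII against vehicle and -0.35 to 3.09 in AngII plus OA against AngII. Without AngII replicate 2 the share in AngII against vehicle passed its exact permutation test (adjusted p = 0.0238), as it did in AngII plus OA against vehicle without AngII plus OA replicate 3 (adjusted p = 0.0238). Lysosomal protein, enzyme activity and autophagic flux were not measured, and 5 libraries a group limit what a missed threshold can show.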
